A study of Rattus norvegicus with 6 samples.

Results

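Collagen genes encode the α chains of the collagens, the trimeric proteins that make up much of the extracellular matrix. They were examined here in the vestibular epithelium of Long-Evans rats given streptomycin, an aminoglycoside antibiotic that is toxic to the sensory hair cells of the inner ear. The members were all protein-coding genes whose symbol is Col, a type number, the letter a and a chain number, and 43 of the 32883 genes of the count table met this rule. By type, 11 were fibrillar collagens, 6 were the basement membrane type IV collagens and 26 were of other types. Col6a3 and Col21a1 were not analysed here.

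The experiment compared 3 Control rats, injected with phosphate-buffered saline, with 3 STREP rats, which received 500 mg/kg of streptomycin subcutaneously once a day for 6 weeks from postnatal day 21. All 6 animals were Long-Evans rats, each group held 2 males and 1 female (replicate 3), and the labels put all libraries in 1 batch. From each animal, both utricles and all 6 cristae were pooled into 1 library, and adjacent tissue had been trimmed away before freezing. The total count was between 48568191 and 59906048 in Control and between 29333584 and 33744909 in STREP. The hair cell and supporting cell markers that were analysed all had counts, and so did markers of fibroblasts, vessels and Schwann cells. All levels below are counts divided by the size factor of the library (normalised counts), unless given as counts. Counts also grow with transcript length, so group differences are read gene by gene. Rankings by count, sums over genes and the share of a gene in a sum are not corrected for length.

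Fibrillar collagens (types I, II, III, V, XI, XXIV and XXVII) form the banded fibrils of connective tissue, and types II, IX and XI are the collagens of cartilage and of the tectorial membrane of the cochlea. Type IV chains form the network of basement membranes. Among the other types, the fibril-associated collagens with interrupted triple helices (FACIT) sit on the surface of fibrils, type VII forms the anchoring fibrils that tie a basement membrane to the stroma below it, type VI makes beaded filaments, types VIII and X make short-chain networks, types XV and XVIII are multiplexins of basement membrane zones, and types XIII, XVII, XXIII and XXV span the cell membrane.

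Streptomycin was followed by lower levels of 2 collagen genes, Col12a1 and Col7a1, and no collagen gene was called higher. Calls required a DESeq2 p below 0.05 after Benjamini-Hochberg adjustment together with a fold change above 1.5. Of the 43 members, 39 were tested, and 2 of 39 were called, beside 527 of 16250 genes in the whole table (3.24%). Both called members were lower, where 223 of all tested genes (1.37%) were called lower and 304 (1.87%) were called higher. At an unadjusted p below 0.05 there were 6 of 39 members, 4 of them lower and 2 higher, beside 12.2% of all tested genes (5.56% lower and 6.65% higher), and the quasi-likelihood test of edgeR called 1 member. Of the 4 members without a test result, Col19a1 had no count in any library, and Col6a4, Col10a1 and Col23a1 had between 4 and 5 counts in all, each in a single animal. A count of 0 allows a normalised count of up to 1.84 to 4.49, depending on the library.

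Groups did not overlap for 4 of the 39 members tested (10.3%), beside 17.8% of all tested genes. Over the 42 members with a count, the median log2 fold change was -0.09, and it was -0.06 when members at 0 in 1 group were set to the bound that 3 counts over the group allow. Over all 18705 genes with a count the median was 0.00. Of the 42 members, 24 lay below 0 and 18 above. In bulk tissue, a smaller number of cells of a type and less RNA per cell cannot be told apart, and this holds for every value below. By the paper's account, each library came from 1 animal. The p-values take the libraries as independent and set the difference between groups against the spread between animals. With 3 animals a group, DESeq2 and edgeR estimate that spread partly from other genes. The sample titles of STREP replicates 1 and 2 share a number and differ only in the letters after it, RF and LF. All other titles have a number of their own and the letters RF. What the number and the letters stand for is not given, so a shared origin of these 2 libraries cannot be told apart from the treatment. Whether they are independent was not tested.

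**Figure D1:**
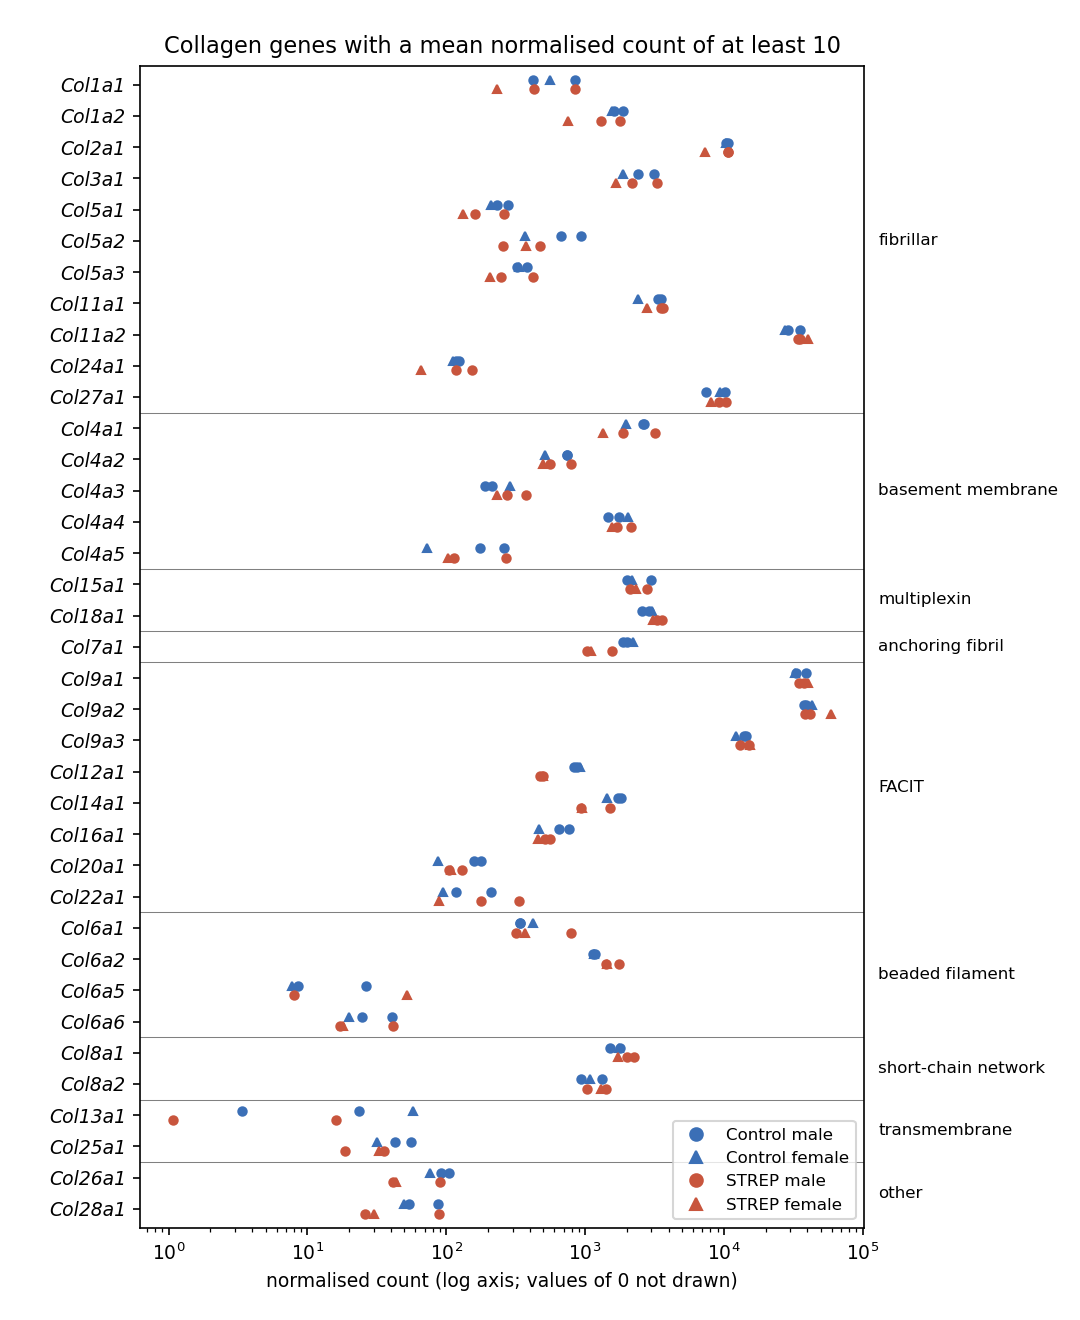
Normalised counts (x axis, log scale) of the 37 collagen genes with a mean of at least 10, with 1 point per animal and the groups offset vertically; genes are grouped by class. Control and STREP points intermingle for most genes, while Col12a1 and Col7a1 have all STREP points to the left of all Control points.

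The promoter of Col7a1 and the shared promoter regions of the type IV pairs are printed because Col7a1 was one of the genes called, and because Col4a1 with Col4a2 and Col4a3 with Col4a4 are transcribed head to head from neighbouring starts, so that their levels can be read pair by pair. The sequences are those of RefSeq on build GRCr8, given on the plus strand, and 34 of the 43 members had an entry; Col12a1 had none. Capitals mark GGGCGG or its reverse complement CCGCCC. The Col7a1 stretch holds the 250 bases before its start (chr8:118483114-118483363). The Col4a1 and Col4a2 stretch is the 76 bases between the starts of both genes (chr16:84885521-84885596), and the Col4a3 and Col4a4 stretch is the 88 bases covered by the upstream windows of both genes (chr9:91323740-91323827).
Col7a1: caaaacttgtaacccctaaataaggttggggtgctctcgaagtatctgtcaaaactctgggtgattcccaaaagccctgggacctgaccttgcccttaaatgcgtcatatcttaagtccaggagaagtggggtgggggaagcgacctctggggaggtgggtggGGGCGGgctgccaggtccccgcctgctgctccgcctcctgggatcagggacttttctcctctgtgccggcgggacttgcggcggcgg
Col4a1 and Col4a2: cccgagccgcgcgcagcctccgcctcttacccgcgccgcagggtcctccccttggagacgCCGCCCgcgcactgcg
Col4a3 and Col4a4: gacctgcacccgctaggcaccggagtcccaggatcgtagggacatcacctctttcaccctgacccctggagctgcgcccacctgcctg
GGGCGG was present on either strand in the 250 upstream bases of 19 of 34 collagen genes (55.9%) and of 30.5% of the 33469 promoters of the same length. The members were limited to protein-coding genes with 1 promoter each, a limit that was not applied to the 33469, so the sets are not alike. Col4a1 and Col4a2 share the marked match and both count among the 19. The motifs CCAAT (11 of 34 members, and 34.02% of all promoters), TATAAA (4 of 34, and 12.9%), TGANTCA (1 of 34, and 6.34%) and TGATGNAA (0 of 34, and 3.40%) were searched in the same way, on both strands and with N for any base. None of these other motifs was present in the 3 printed stretches, and a match or its absence describes the letters of the window only.

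Col12a1 (ENSRNOG00000058470) encodes the chain of type XII, a FACIT collagen that binds to the surface of type I fibrils. Its normalised counts were 835, 873 and 925 in the Control rats (mean 878 ± 44.8, SD, n = 3) and 470, 494 and 500 in the STREP rats (mean 488 ± 15.8). The STREP animals lay close together and far below the lowest Control animal. The log2 fold change was -0.85 ± 0.17 (SE), so that its level fell by 44.4%, with an adjusted p of 5.62e-05 in DESeq2. Col12a1 was called under every alternative listed in the closing section, and it was the 1 member that edgeR called (adjusted p 0.020).

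Col7a1 (ENSRNOG00000020579) encodes the chain of the anchoring fibrils. Its normalised counts were 1889, 1999 and 2223 in Control (mean 2037 ± 170) and 1033, 1573 and 1112 in STREP (mean 1239 ± 292). The groups did not overlap, but STREP replicate 2 lay nearer to the lowest Control animal than to the other STREP animals. The log2 fold change was -0.72 ± 0.19, so that its level fell by 39.1%, with an adjusted p of 0.0094 in DESeq2. This call rested on single animals: the adjusted p was 0.064 without Control replicate 2, 0.12 without Control replicate 3, 0.11 without STREP replicate 1 and 0.061 without STREP replicate 3. It was also lost in edgeR (0.074), with library totals as size factors (0.24) and in the males alone (0.25), while the log2 fold change stayed between -0.93 and -0.58 in all fits and the adjusted p ranged from 3.0e-06 to 0.25.

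**Figure D2:**
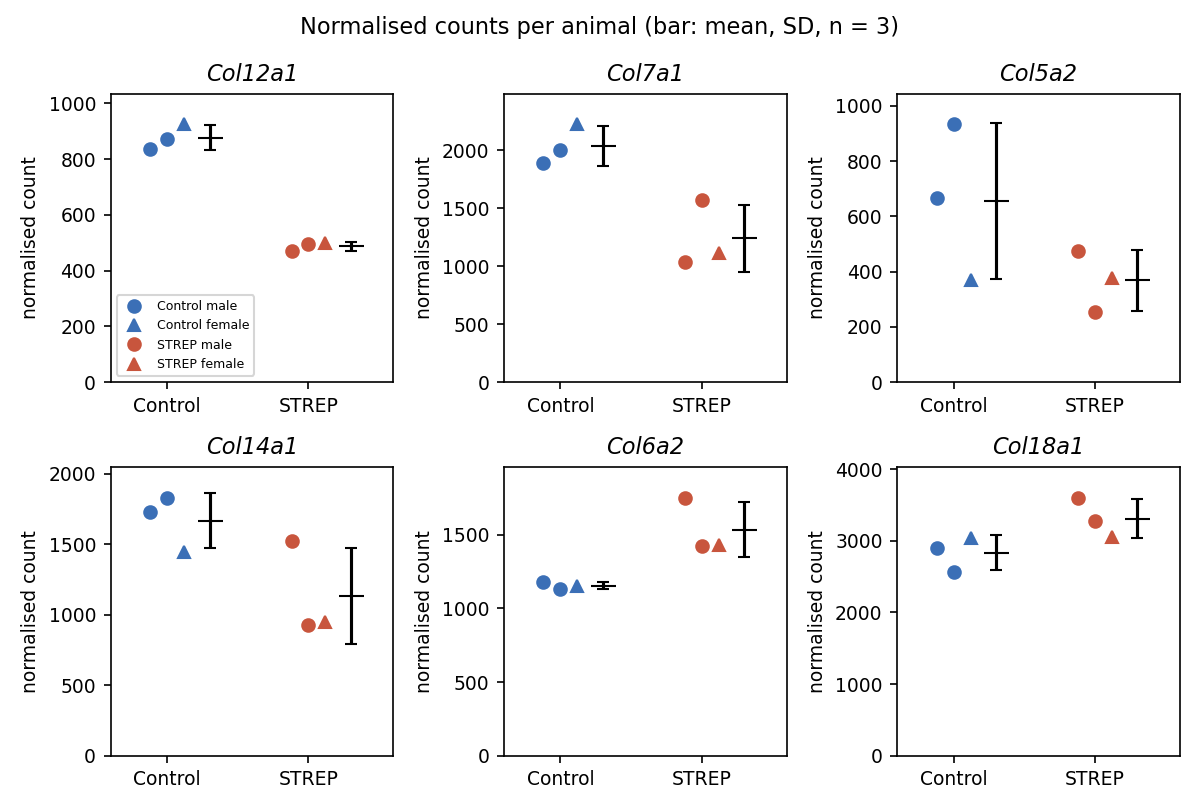
Normalised counts per animal (y axis, from 0) of Col12a1, Col7a1, Col5a2, Col14a1, Col6a2 and Col18a1; circles are males, triangles females, and the black mark is the mean with its SD (n = 3). STREP animals lie below all Control animals for Col12a1 and Col7a1, above all of them for Col6a2 and Col18a1, and overlap with them for Col5a2 and Col14a1.

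None of the 11 fibrillar collagens was called by DESeq2 or by edgeR, and 1 of them, Col5a2, had an unadjusted p below 0.05. Their median log2 fold change was -0.12, 8 of 11 lay below 0, and no fibrillar gene separated the groups. Col5a2, a chain of the type V collagen that initiates type I fibrils, had normalised counts of 666, 932 and 370 in Control and 475, 255 and 376 in STREP. The Control values were spread widely, and the female Control animal lay within the STREP range. Its log2 fold change was -0.83 ± 0.34 with an adjusted p of 0.20. It passed the threshold without Control replicate 3 (-1.12, adjusted p 0.021) and in the males alone (-1.14, adjusted p 0.043), and not in the other fits.

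Col1a1 and Col1a2 encode both chains of type I collagen, the main collagen of stroma and bone. Col1a1 was at 419, 840 and 560 in Control and at 843, 429 and 233 in STREP, and its log2 fold change was -0.27 ± 0.40 (adjusted p 0.91). Col1a2 was at 1874, 1621 and 1571 in Control and at 1776, 1296 and 757 in STREP, with a log2 fold change of -0.40 ± 0.26 (adjusted p 0.61). In both genes STREP replicate 1 reached into or above the Control range and STREP replicate 3 lay below it. Col3a1, the chain of type III fibrils, was at 2390, 3157 and 1863 in Control and at 3285, 2181 and 1680 in STREP, and the groups overlapped (log2 fold change -0.05 ± 0.26).

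The fibrillar chains known from cartilage showed no called difference. Col2a1, the chain of type II collagen, was at 10677, 10350 and 10332 in Control and at 10664, 10774 and 7346 in STREP, so that 1 STREP animal lay below the others (log2 fold change -0.12 ± 0.17). Col11a2, a type XI chain, was at 35502, 29122 and 27501 in Control and at 35127, 34347 and 40214 in STREP (0.25 ± 0.14), and its groups overlapped. Col11a1 (0.11 ± 0.19) and Col27a1 (0.03 ± 0.16) also overlapped. For Col2a1, Col3a1, Col11a1, Col11a2 and Col27a1 the 95% Wald interval of the log2 fold change stayed inside a change of 1.5-fold in either direction, and this was so for 13 of the 43 members in all.

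**Figure D3:**
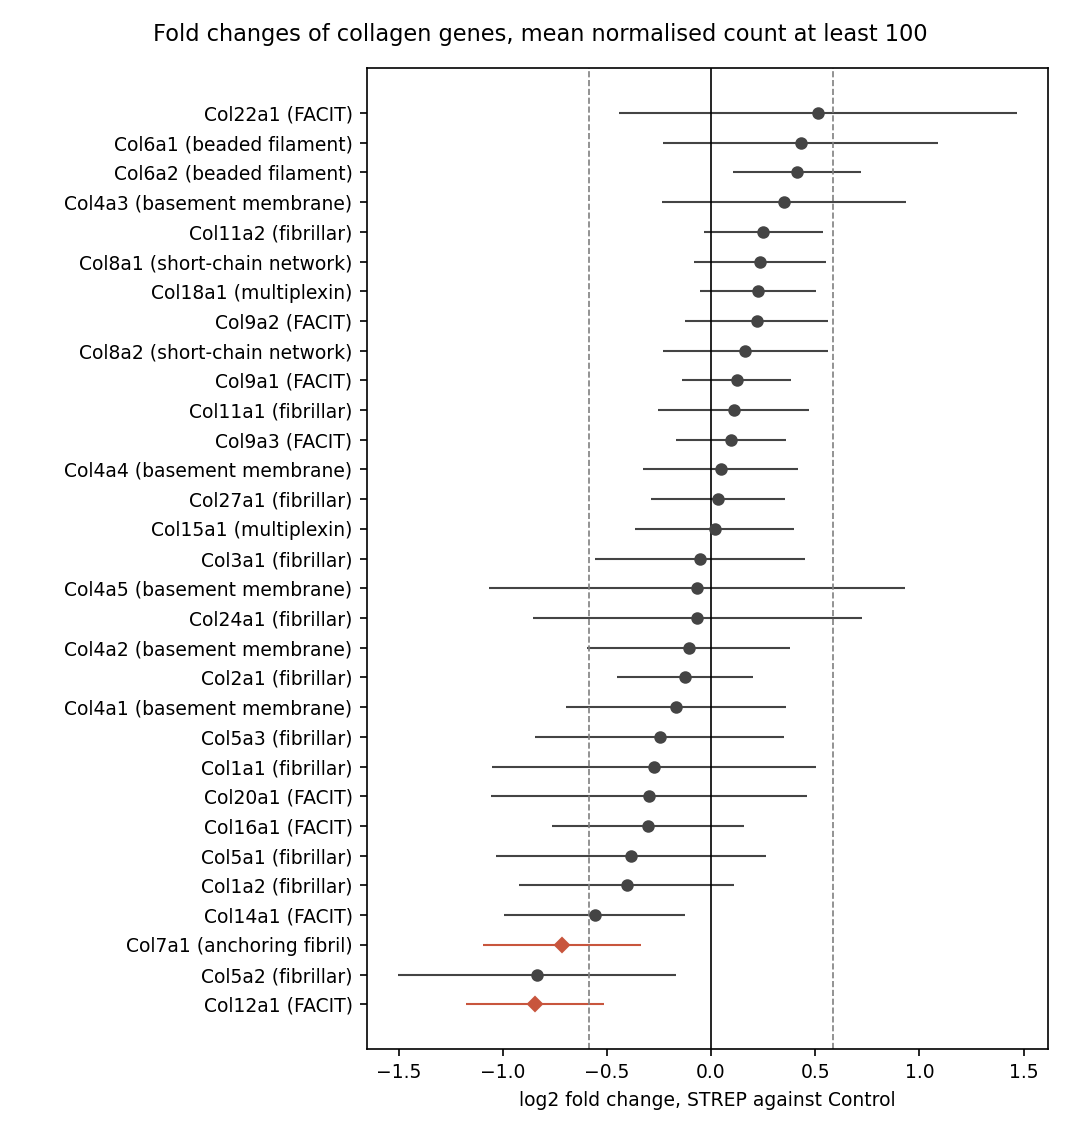
Log2 fold change of STREP against Control (x axis) with its 95% Wald interval for the 31 collagen genes whose normalised counts averaged at least 100; dashed lines mark a change of 1.5-fold and red diamonds mark the genes called. Col12a1 and Col7a1 are the 2 red genes at the bottom, and Col5a2 lies between them with an interval that reaches -0.17.

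None of the 6 type IV genes was called by DESeq2 or by edgeR, and 1 of them, Col4a6, had an unadjusted p below 0.05. Their median log2 fold change was -0.01. Col4a1 and Col4a2 encode the chains found in nearly all basement membranes. Col4a1 was at 2665, 2594 and 1975 in Control and at 3191, 1885 and 1352 in STREP (log2 fold change -0.17 ± 0.27), and Col4a2 was at 741, 735 and 511 in Control and at 791, 559 and 495 in STREP (-0.11 ± 0.25). In both groups the female animal had the lowest value of both genes.

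Col4a3, Col4a4 and Col4a5 encode the chains of the specialised network known from kidney glomeruli and the inner ear. Col4a3 was at 214, 191 and 290 in Control and at 274, 378 and 232 in STREP (log2 fold change 0.35 ± 0.30), and Col4a4 was at 1744, 1450 and 2040 in Control and at 1704, 2135 and 1560 in STREP (0.05 ± 0.19). Col4a5 was at 175, 261 and 73.1 in Control and at 113, 269 and 103 in STREP (-0.07 ± 0.51), so that animals within each group differed more than the groups did. Col4a6 had no count in any Control library and counts of 0, 27 and 7 in STREP (adjusted p 0.10), and no fold change is given for it. Its adjusted p was 0.032 without STREP replicate 1, the STREP animal at 0.

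Ratios of 2 chains within an animal do not depend on the scaling of libraries, and 10 such ratios were compared by an exact two-sided permutation test, in which 3 against 3 animals cannot give a p below 0.10. The log2 ratio of Col4a3 to Col4a4 counts was -3.03, -2.92 and -2.82 in Control and -2.64, -2.50 and -2.75 in STREP. These values did not overlap (difference 0.29, exact p 0.10, the smallest this design allows, and 1 after adjustment over the 10 ratios). The Col4a1 to Col4a2 ratio overlapped (difference -0.13, exact p 0.50), as did Col1a1 to Col1a2 (0.08, exact p 1), and Col9a1 to Col9a3 (0.03, exact p 0.90).

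Among the other FACIT genes, Col9a1, Col9a2 and Col9a3 encode the 3 chains of type IX collagen. Col9a1 was at 32851, 38924 and 32429 in Control and at 38049, 34926 and 40481 in STREP (log2 fold change 0.12 ± 0.13). Col9a2 was at 37781, 38915 and 42747 in Control and at 41634, 38258 and 59176 in STREP (0.22 ± 0.18), where STREP replicate 3 stood above the other 5 animals. Col9a3 was at 14438, 14038 and 12181 in Control and at 15117, 13007 and 15296 in STREP (0.09 ± 0.13). All 3 intervals stayed inside 1.5-fold, so that type IX and type XII, both FACIT collagens, had different calls, and the difference between them was not tested.

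Col14a1 encodes the chain of type XIV, a FACIT collagen of fibril surfaces like type XII. Its normalised counts were 1726, 1829 and 1448 in Control and 1523, 930 and 945 in STREP. STREP replicate 1 lay within the Control range and the other 2 STREP animals below it. The log2 fold change was -0.56 ± 0.22 with an adjusted p of 0.18, and it passed the threshold without STREP replicate 1 (-0.83, adjusted p 9.1e-04). Col16a1 (-0.30 ± 0.24), Col20a1 (-0.30 ± 0.39) and Col22a1 (0.51 ± 0.49) overlapped between the groups.

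Type VI collagen makes the beaded filaments around cells, and its chains Col6a1 and Col6a2 are neighbours in the genome. Col6a2 was at 1180, 1131 and 1153 in Control and at 1749, 1422 and 1433 in STREP. All STREP animals lay above all Control animals, and the log2 fold change was 0.41 ± 0.16 with an adjusted p of 0.15. Col6a1 was at 341, 341 and 420 in Control and at 796, 319 and 371 in STREP (0.43 ± 0.34, adjusted p 0.72), a difference carried by STREP replicate 1: without it the log2 fold change was -0.09. Col6a4, Col6a5 and Col6a6 had mean normalised counts under 30.

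Of the multiplexins, Col18a1, whose product carries endostatin at its end, was at 2896, 2562 and 3040 in Control and at 3600, 3276 and 3059 in STREP. The groups did not overlap, although the lowest STREP and the highest Control value lay close together (log2 fold change 0.23 ± 0.14, adjusted p 0.58). Col15a1 overlapped (0.02 ± 0.19). Col8a1 (0.23 ± 0.16) and Col8a2 (0.17 ± 0.20), the type VIII chains, also overlapped, and both intervals stayed inside 1.5-fold. The transmembrane genes Col13a1, Col17a1 and Col25a1 and the genes Col26a1 and Col28a1 had mean normalised counts below 100 in both groups, and none was called.

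Within each group, the lowest values of the fibrillar collagens often fell on the same animal. Among the 11 fibrillar genes, STREP replicate 3 had the lowest value of its group for 9 and Control replicate 3 for 8, and STREP replicate 1 had the highest for 8. Among all 12131 genes whose normalised counts averaged at least 100, each animal was the lowest of its group for 30.1 to 36.1% of genes. STREP replicate 3 also had the lowest value of its group for all 5 type IV genes with that mean, while Control replicate 3 had the lowest for 3 and the highest for 2. The summed normalised count of types I, III and V was 5962, 7152 and 4909 in Control and 7058, 4570 and 3382 in STREP. The summed normalised count of all collagens was 171968, 170011 and 162053 in Control and 183230, 169704 and 194135 in STREP. STREP replicate 3 had the highest of these sums and Control replicate 3 the lowest. Much of each sum came from the type IX genes, which alone summed to 85070, 91877 and 87357 in Control and to 94799, 86191 and 114953 in STREP. As a share of the library total, the summed count of all collagens was 0.468, 0.412 and 0.385% in Control and 0.469, 0.494 and 0.385% in STREP. By this share STREP replicate 3 was the lowest of its group. For both measures the ranges of Control and STREP overlapped.

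**Figure D4:**
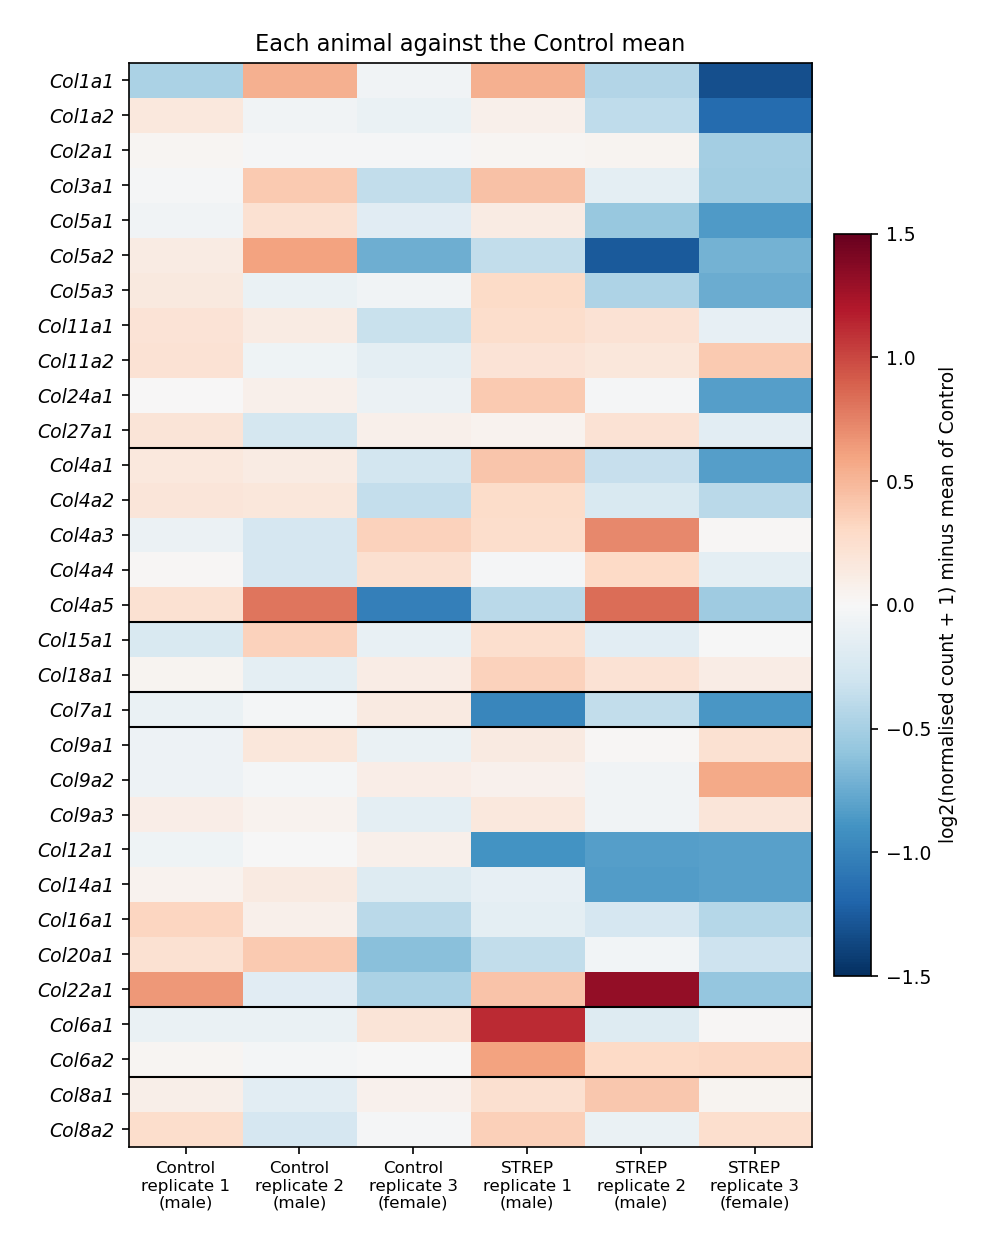
Each animal's log2(normalised count + 1) minus the mean of the Control animals (colour, from -1.5 to 1.5) for the 31 collagen genes whose normalised counts averaged at least 100, with black lines between classes. Rows for Col12a1 and Col7a1 are blue in all 3 STREP animals, while for types I, III and V the blue is deepest in STREP replicates 2 and 3 and STREP replicate 1 is mostly red.

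Replicate 3 was the female of each group, and a difference between females and males was therefore taken from the DESeq2 fit with sex and group, an analysis chosen after seeing the data. The log2 difference of females against males was below 0 for 11 of 11 fibrillar genes (median -0.46) and for 34 of 42 collagens, beside 9696 of 18705 genes in all (median -0.02), although that of Col11a2 was -0.0051 with an unadjusted p of 0.97. These are signs of estimates, and 1 member passed an adjusted p of 0.05. This was Col11a1 (0.029), with normalised counts of 2607 on average in females and 3512 in males (log2 difference -0.43 ± 0.13), which is below the fold threshold. DESeq2 gave an adjusted p for sex to 11 members, of which none was called, while 75 of 3734 genes were (2.01%). An unadjusted p below 0.05 was found for 8 of 42 members, beside 7.46% of the 18705 genes. With 1 female in each group, sex and the single animal cannot be told apart. With sex as a covariate, Col12a1 and Col7a1 were still called. The interaction of sex and group rested on 1 female in each group, and none of the 33 members with an adjusted p passed 0.05 for it, which does not show that the sexes responded alike.

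Collagen chains are modified, folded, cleaved, cross-linked, bound and broken down by other gene products, and 6 lists of these genes were examined in the same fit. Of 85 listed genes, 81 were tested and 1, Tnc, was called by DESeq2 and by edgeR. Over the whole table, DESeq2 called 527 of 16250 genes (3.24%). No gene was called among the enzymes and chaperones of chain folding (0 of 19 tested, median log2 fold change 0.13), the cleavage and cross-linking enzymes (0 of 12, -0.02), the receptors (0 of 8, 0.19), the genes of breakdown and its inhibitors (0 of 14, 0.03) or the basement membrane partners (0 of 11, -0.07). At an unadjusted p below 0.05 these lists held 0, 2, 1, 3 and 3 genes, and edgeR called none of them. The remaining list, fibril-associated proteoglycans and glycoproteins, had 17 tested genes. Of these, Tnc was called, and 4 had an unadjusted DESeq2 p below 0.05, 2 lower and 2 higher. Over all 6 lists, 13 of 81 tested genes had such a p (8 lower and 5 higher), beside 12.2% of all tested genes.

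Tnc encodes tenascin-C, a matrix glycoprotein that binds fibronectin and other matrix proteins. It was at 5298, 5232 and 5260 in Control and at 3257, 3423 and 3732 in STREP. The groups were far apart, and the log2 fold change was -0.60 ± 0.12 with an adjusted p of 1.0e-04 in DESeq2. It was not called with library totals as size factors (adjusted p 0.056), and without STREP replicate 1 its log2 fold change of -0.56 was below the fold threshold. Timp1, an inhibitor of matrix metalloproteinases, was at 4046, 4194 and 3928 in Control and at 5477, 5633 and 5104 in STREP (0.41 ± 0.12, adjusted p 0.020), without overlap and below the fold threshold. Timp1 and the 3 genes that follow were named after their values were seen.

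Lama1, the laminin α1 chain, was at 253, 267 and 278 in Control and at 146, 79.9 and 166 in STREP (log2 fold change -1.03 ± 0.33, adjusted p 0.054), and it passed the threshold without STREP replicate 3 (-1.24, adjusted p 0.029). Mmp2, a gelatinase, was at 1417, 1691 and 1246 in Control and at 1313, 740 and 651 in STREP (-0.69 ± 0.26, adjusted p 0.15). Its STREP replicate 1 lay within the Control range, as for Col14a1, and it passed the threshold without that animal (-1.06, adjusted p 9.7e-05). Postn, which encodes the collagen-binding protein periostin, was at 18.4, 128 and 169 in Control and at 328, 242 and 175 in STREP (1.24 ± 0.59, adjusted p 0.34). The collagen receptor Ddr1, a receptor tyrosine kinase, was at 6657, 6871 and 7865 in Control and at 8114, 9805 and 11879 in STREP (0.48 ± 0.17, adjusted p 0.088), and its groups did not overlap. Ddr1 passed the threshold without STREP replicate 1 (0.60, adjusted p 0.013), and with sex as a covariate it had an adjusted p of 0.0094 at 0.47, below the fold threshold.

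The 2 genes with the most counts in each list were Ddr1 and the following, and none of them was called. P4hb, a subunit of the prolyl hydroxylase, had a log2 fold change of 0.18 ± 0.15 and Plod1, a lysyl hydroxylase, of -0.08 ± 0.11. The cross-linking enzyme Loxl1 was at -0.01 ± 0.12 and the procollagen protease Adamts2 at -0.04 ± 0.17. Itgb1, the integrin β1 subunit, was at 0.15 ± 0.13, Sparc at 0.06 ± 0.22, Thbs2 at 0.17 ± 0.16, Timp3 at 0.15 ± 0.15, Mmp15 at -0.13 ± 0.16, Lamb2 at 0.04 ± 0.12 and Nid1 at -0.05 ± 0.19, and none of these had an adjusted p below 0.05.

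**Figure D5:**
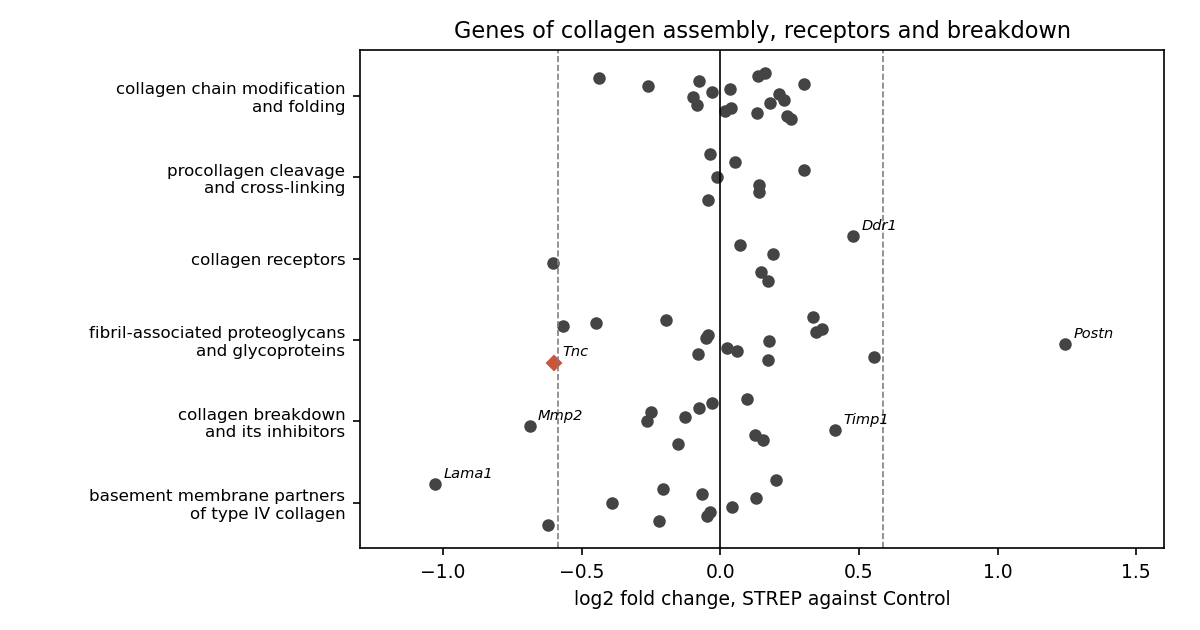
Log2 fold change of STREP against Control (x axis) for the genes of the 6 lists whose normalised counts averaged at least 100, 1 point per gene; dashed lines mark a change of 1.5-fold and the red diamond marks the gene called. Tnc is the called gene, and Lama1, Mmp2 and Postn are among the genes beyond the dashed lines that were not called.

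Marker genes of the cells that make collagen were read from the same fit. None of the 10 fibroblast and periotic mesenchyme markers was called, and their summed normalised count was 24399 to 30843 in Control and 22836 to 29971 in STREP. Single markers went in both directions: Dpt was lower without overlap (-1.01, adjusted p 0.068 in DESeq2). Dcn was lower with overlap (-0.45, adjusted p 0.28), and Tbx18 was higher without overlap (0.38, adjusted p 0.10). The 8 endothelial markers (14395 to 16013 and 13890 to 17556), the 8 pericyte markers (2723 to 3100 and 2407 to 3797), the 6 tested of 7 cartilage markers (88349 to 124882 and 89569 to 157207) and the 7 bone markers held no called gene in DESeq2 or edgeR, with 3 genes at an unadjusted p below 0.05, all among the fibroblast markers. The sum of the bone markers was almost entirely Spp1 (98.9 to 99.6% in all animals). Spp1 encodes osteopontin and is also known from vestibular hair cells, and the part of its counts that came from bone was not tested. Without Spp1 the sum of the bone markers was 1398 to 1928 in Control and 1011 to 2098 in STREP. The sum of the cartilage markers was mostly Cnmd (84.9 to 88.8% in Control and 84.3 to 85.6% in STREP). Without Cnmd it was 13330 to 13992 in Control and 14028 to 23697 in STREP. Most of this rest was Sox9, at 12380 to 12670 in Control and 12685 to 22968 in STREP. The part of the Cnmd and Sox9 counts that came from cartilage was not tested. The cartilage marker Matn1 had no count in Control, Matn3 and Hapln1 had means below 100 in both groups, and the smooth muscle marker Acta2 had a mean below 5. Of 7 Schwann cell markers, Prx was called lower (-0.68) and Sox10 higher (0.95), and their sum was 248794 to 342216 in Control and 137113 to 280377 in STREP. Of the other lists, 0 of 7 macrophage, 0 of 5 melanocyte, 0 of 8 supporting cell and 0 of 6 dark cell markers were called, and 1 of 7 hair cell markers was (Gfi1, higher, 1.20). Over all marker lists, 3 of 78 tested genes were called, beside 3.24% of all tested genes. An unadjusted DESeq2 p below 0.05 was found for 19 of the 78 (11 lower and 8 higher), beside 12.2% of all tested genes. They included 3 Schwann cell, 2 melanocyte, 2 macrophage, 3 supporting cell, 4 hair cell and 2 dark cell markers. Hair cell markers lay below 0 for 6 of 7 genes, and their sum was 69730 to 71150 in Control and 58818 to 70029 in STREP. Myo7a (-0.49, adjusted p 0.016) and Lhfpl5 (-0.45, adjusted p 0.016) fell without overlap and below the fold threshold. Dark cell markers lay below 0 for 5 of 6 genes, and their sum did not overlap, at 28163 to 28365 in Control and 16884 to 21951 in STREP. Most of it was Slc12a2, which fell by 0.55 on the log2 scale (adjusted p 0.0035 in DESeq2), below the fold threshold. Without Slc12a2 the sums overlapped, at 4764 to 7482 in Control and 4051 to 5906 in STREP. Supporting cell markers lay above 0 for 6 of 8 genes. The 3 with an unadjusted DESeq2 p below 0.05 were all higher, beside 6.65% of all tested genes higher at that p. Supporting cell markers summed to 929365 in STREP replicate 3 and to 608317 and 559745 in STREP replicates 1 and 2. This sum was carried by Otog (0.50, adjusted p 0.19 in DESeq2). Otog was at 729507 in STREP replicate 3 and at 452183 and 425664 in the other STREP animals. Without Otog the sums were 134081 to 199859 in STREP and 139414 to 183594 in Control. The part of any of these in the collagen values was not tested.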

How the data were processed

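RNA from the pooled utricles and cristae of 6 rats was sequenced with the SMART-seq2 method, 1 library per animal. The authors aligned the reads with STAR 2.5.3a to Rnor6.0 and estimated gene counts with RSEM 1.3.0 (per their processing notes), and the deposited values are these expected counts, unscaled. All of the values were whole numbers, and 32883 genes were listed, of which 18705 had a count. Group and sex came from the labels, and replicate numbers were given in accession order.

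DESeq2 1.42.0 in R 4.3.3 was fitted with the group as the sole term on all genes. Genes with an adjusted p below 0.05 and a fold change above 1.5 were called. Members and gene lists were chosen with earlier results of these data known. The rule for named genes took every called member or one with an adjusted p below 0.05, the 3 most abundant members of each class, all chains of types I, IV, VI and IX, the 5 highest and the 5 lowest log2 fold changes among members averaging at least 100 normalised counts, and the called and the 2 most abundant genes of each list. Other members were named as well, after their values were seen. Alternatives were edgeR 4.0.16, other scalings, genes with 10 counts in 3 libraries or more, independent filtering or the outlier test switched off, sex as a covariate, males only, no fold threshold and 1 animal left out. The scripts were tested on simulated data. Promoter sequences came from RefSeq. Depth differed between groups, and intervals cover counting error and the spread between animals as DESeq2 fits it.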

Additional observations from a re-analysis of the deposited data

How the results depend on the processing

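The number of collagen genes called fell from 2 to 1 in edgeR with its filter, in edgeR with no filter and with library totals as size factors, and it was 1 to 3 when 1 animal was left out. The number of pathway genes called was 0 with library totals as size factors, 2 with the adjusted p alone and 1 to 2 with 1 animal left out. Over all genes, 264 and 295 were called by edgeR with and without its filter, 309 with library totals and 424 to 517 with 1 animal left out, beside 527. The median log2 fold change of the collagens was -0.33 to 0.048 and that of the other types -0.29 to 0.14 with 1 animal left out, and those of the fibrillar and type IV genes ranged from -0.36 to 0.07 and from -0.07 to 0.16. The cause of these shifts was not tested.

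With sex as a covariate the sign changed for Col4a5 (0.032) and Col6a5 (-0.73), and in the males alone for Col15a1 (-0.024), Col17a1 (0.56), Col1a1 (0.012), Col2a1 (0.026), Col6a5 (-2.15), Col9a3 (-0.020) and Sparc (-0.049). With 1 animal left out, log2 fold changes that changed sign ranged from -0.10 to 0.21 for Col15a1, -3.68 to 0.56 for Col17a1, -0.69 to 0.19 for Col6a6, -0.87 to 0.069 for Col1a1, -0.090 to 0.13 for Col27a1, -0.10 to 0.17 for Col4a4, -0.65 to 0.38 for Col4a5, -0.092 to 0.67 for Col6a1, -0.074 to 0.91 for Col22a1, -0.22 to 0.037 for Col2a1, -0.57 to 0.074 for Col4a1, -0.33 to 0.026 for Col4a2 and -1.86 to 1.29 for Col6a5. The same held for Loxl1 (-0.023 to 0.0018), Sparc (-0.17 to 0.27), Adamts2 (-0.17 to 0.093), Nid1 (-0.22 to 0.12) and Lamb2 (-0.0045 to 0.094). No fit listed in this paragraph called any of them. Fold changes of the 6 members with a mean normalised count under 10, Col17a1 among them, rest on few counts. No paired analysis was possible because the replicate numbers follow accession order and pair no animals.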
